A study of Mus musculus with 2 samples.

Results

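The subject is a set of 10 genes used as markers of stem cells in the hair follicle and the epidermis, namely Prom1, Cd34, Lgr4, Lgr5, Lgr6, Lrig1, Tbx1, Nfatc1, Foxc1 and Plet1. Every non-control probe that carried one of these gene names on both arrays was taken, which gave 15 probes for 9 of the 10 genes, of 55676 probes under 34820 names in all. No probe was named Plet1, but 2 probes under its older name 1600029D21Rik matched the RefSeq accession of Plet1 and are described beside the set. The genes were selected on their role as markers with the log2 Cy5/Cy3 ratios of these same arrays known, so these ratios are a description. Adjusted p values printed for them come from a fit over all probes and give no independent support, under any way of processing. Epidermis was separated with dispase from the dorsal skin of FVB/N pups at postnatal day 4.5, after doxycycline (Dox) had been given for 12 h to all of them. SOX11-induced pups carried K14-rtTA and TRE-Sox11-FLAG, whereas control littermates of the same sex carried K14-rtTA alone. K14-rtTA makes a Dox-dependent activator in keratin 14 positive cells, and the TRE-Sox11-FLAG transgene of a single line answers to that activator with FLAG-tagged SOX11, so induction was directed to those cells. Each of 2 littermate pairs was hybridised to its own 2-colour array, with the control in Cy3 and the SOX11-induced pup in Cy5 on both. A positive log2 ratio therefore means brighter in SOX11-induced epidermis, and a probe's dye bias and its response to the transgene cannot be told apart.

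The hair follicle and the epidermis keep separate pools of stem cells. CD34, NFATC1, FOXC1, TBX1 and LGR5 are known from the bulge and hair germ of the follicle, LRIG1, PLET1 and LGR6 from the junctional zone and isthmus above them. LGR4, LGR5 and LGR6 are receptors for R-spondins, secreted proteins that keep Wnt receptors at the cell surface. LRIG1 lowers the amount of ERBB growth factor receptors, and NFATC1, FOXC1 and TBX1 are transcription factors that in the bulge help to keep stem cells quiet or to renew them. PROM1, also called CD133, is a membrane protein of protrusions that marks stem and progenitor cells in several epithelia. At postnatal day 4.5 the first hair coat is still growing, so these genes are read here in follicles under construction rather than in resting ones.

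The 2 probes of Prom1 gave unlike ratios, as did those of Lgr5, and for that reason they are shown 5′ to 3′, with a probe of Tbx1 and one of Plet1, whose ratios also stand out below. The sequences are those in the array files, and 60-base probes taken, from their place in the transcript, to lie in the coding part (Prom1 at base 2436 and Plet1 at base 316 of the listed transcript) are printed whole, the others as a stretch of 30 bases. Capitals mark AATAAA, the signal for cleavage and polyadenylation near the 3′ end of a transcript, which 10.1% of the 55681 array probes with a 60-base sequence hold. Positions are on mm9, in the order used by the files.
Prom1, base 3686, chr5:44384861-44384920, minus strand: gttgagatttaaAATAAAgcatgaatgaac
Prom1, base 2436, chr5:44397410-44397469, minus strand: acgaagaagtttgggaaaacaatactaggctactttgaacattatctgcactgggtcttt
Lgr5, base 4618, chr10:114887403-114887462, minus strand: catgtaaatacgtagtgcttgtaaatagat
Lgr5, base 3776, chr10:114900686-114900745, minus strand: acctctagtgcttatatagaaacttgtgtg
Tbx1, base 1716, chr16:18581807-18581866, minus strand: tgtgtagatactgtagatactgcaccggcg
Plet1, base 316, chr9:50307294-50307353, plus strand: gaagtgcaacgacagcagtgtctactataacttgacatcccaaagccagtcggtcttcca
The Prom1 probe at base 3686 held AATAAA with 15 bases after it, and of the 17 probes of the 10 genes only this one, Cd34 at base 2370 and Lrig1 at base 4906 held the signal.

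Prom1 stood apart from the rest of the set. Its 3′ probe was at least 11.0-fold brighter in SOX11-induced epidermis (mean log2 ratio 3.46 ± 0.814, SD, n = 2 pairs), whereas the means of the other 14 probes lay between -1.31 (Lgr5) and 0.50 (the second Prom1 probe). Only the 3′ probe of Prom1 met the rule for a called probe, an adjusted p under 0.05 in the limma fit over all probes together with a mean log2 ratio above 1.5 or below -1.5. Over all 55676 probes 0.451% met that rule. Past the adjusted p alone there were 1 member probe higher, the same Prom1 probe, and 1 lower, an Lgr5 probe, where 2.9% of all probes were past it higher and 1.35% lower. These counts come from the contrast that was known when the genes were picked, and nothing is read from them. The median of the 15 means was -0.09 against 0.01 over all probes tested. Low signal limited the set, since 9 of the 15 probes were above background in the control or the SOX11 channel of each array, 8 of them in all 4 channels, and 2 were above background in none. No member spot was saturated or had an outlier flag, and each probe was a single spot per array.

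**Figure D1:**
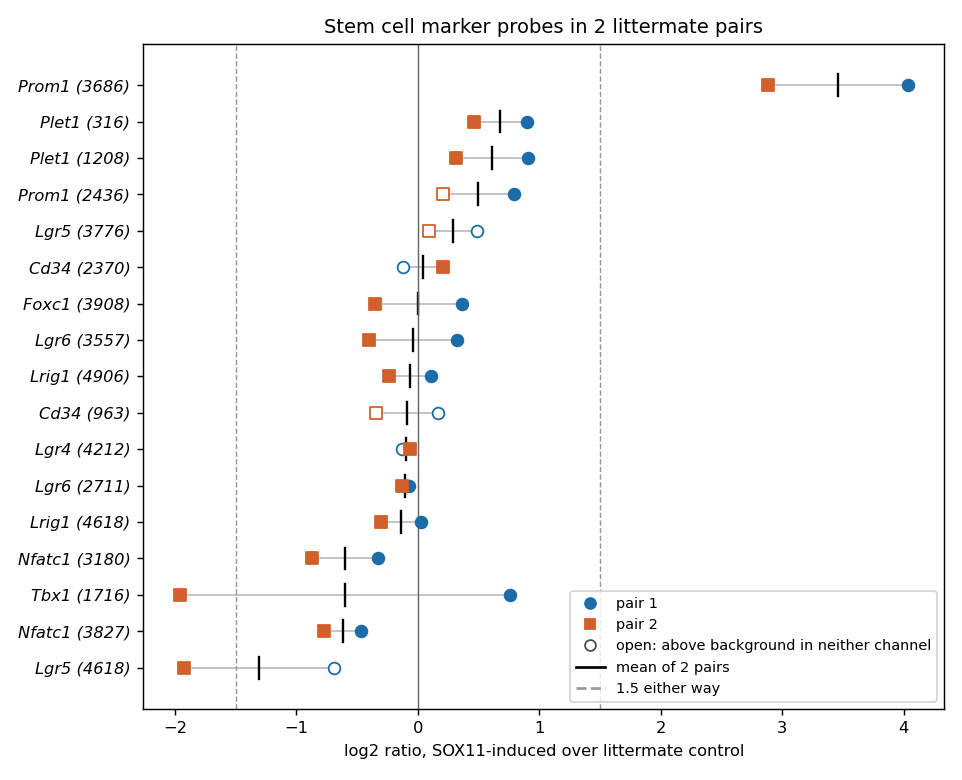
Log2 ratio of SOX11-induced over control epidermis (x axis) for each probe of the 10 genes, with the base of the listed transcript where the probe starts in parentheses; circles are pair 1, squares pair 2, vertical bars the mean of 2 pairs, and open symbols mark arrays on which neither channel was above background. Prom1 at base 3686 lies at 4.03 and 2.88, far to the right of the other probes, and Tbx1 lies on opposite sides of 0 in the pairs.

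By its 3′ probe, Prom1 RNA was near the detection limit in control epidermis and clear in SOX11-induced epidermis. At base 3686 the brightness in scanner units was 43.5 and 71.1 in the controls of pairs 1 and 2 and 1129 and 986 in the SOX11-induced littermates. After scaling between arrays the log2 levels were 5.75 and 6.38 in the controls and 9.78 and 9.27 in the SOX11-induced pups. The control was above background on the array of pair 2 alone, so the ratio of pair 1 is a lower bound. Its log2 ratios were 4.03 in pair 1 and 2.88 in pair 2, that is, at least 16.4-fold and 7.38-fold. With processed signals the mean was 4.39 and the call was lost (limma adjusted p = 0.283). Of the 21782 probes above background, 0.0367% had a mean at least as high.

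The second Prom1 probe, in the coding part, gave smaller ratios at a level near background. Its log2 ratios were 0.79 in pair 1 and 0.20 in pair 2 (0.50 ± 0.417, SD, n = 2 pairs). This probe was dim everywhere, with brightness of 38.3 and 43.5 in the controls and 95.7 and 83.4 in the SOX11-induced pups, and the SOX11 channel of pair 1 alone was above background. In pair 1 it was at least 1.26-fold brighter in the SOX11-induced pup (log2 levels of 5.09 and 5.88), and in pair 2 no bound can be given. Thus the ratios of both probes were positive, and how far this one lies from the 3′ probe cannot be read from such dim spots. Its mean was 1.63 with the scanner software's processed signals (limma adjusted p = 0.288).

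**Figure D2:**
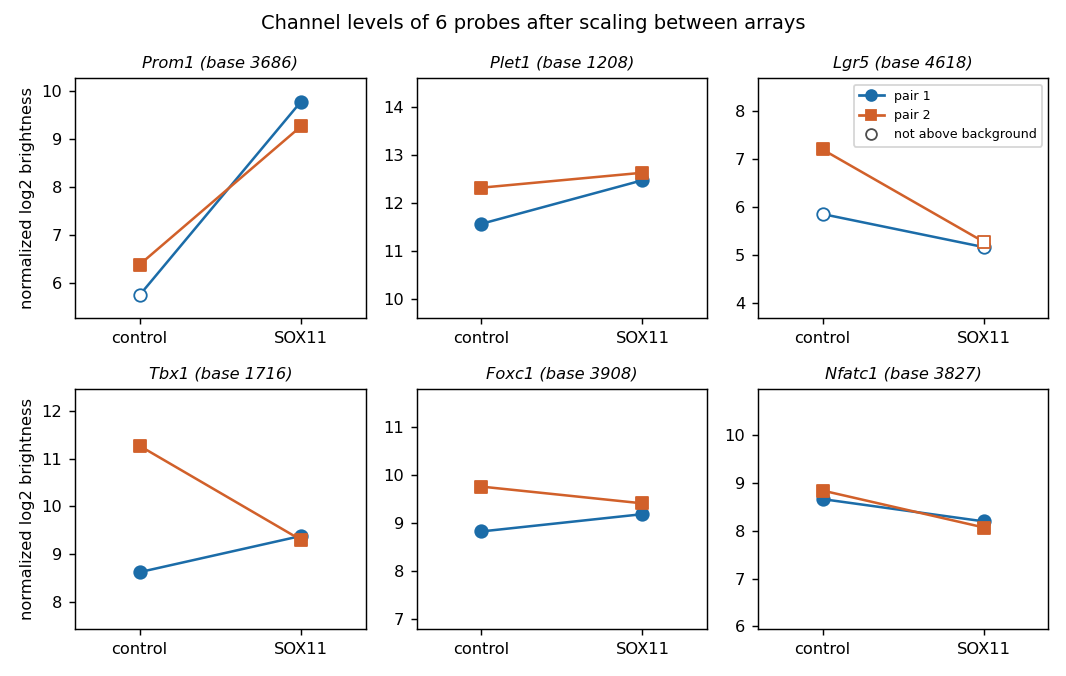
Normalized log2 brightness (y axis, the same span in each panel with a different start) of 6 probes in the control and SOX11 channels, joined within each littermate pair; open symbols were not well above background. Prom1 rises in both pairs from a control level near background, while for Tbx1 and Lgr5 the control of pair 2 lies above that of pair 1 and the SOX11 channels lie close together.

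No probe near Prom1 had a comparable ratio. Within 200 kb on either side the array held 6 other probes under 5 names, of which 3 were above background and 0 passed an adjusted p of 0.05 in the limma fit. Their means ran from -0.34 to 0.50. The closest, Fgfbp1 at -14.3 kb, codes for a secreted protein that binds fibroblast growth factors and gave -0.49 in pair 1 and -0.20 in pair 2. Cd38, an ectoenzyme of the cell surface at -82 kb, gave 0.60 and 0.39, with the control above background in neither pair and the SOX11 channel in both. Named genes, each read by its brightest probe, were ranked by how near their ratios lay to those of Prom1. Nearest was Syt5, a synaptotagmin (3.82 and 3.09, Euclidean distance 0.294 over the 2 ratios). Next came Tubb2b, a beta tubulin (3.99 and 3.23, distance 0.351), and Fblim1, an adaptor of cell-matrix adhesions (3.52 and 2.60, distance 0.582). These distances take the Prom1 ratio of pair 1 as measured, against a control not above background.

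**Figure D3:**
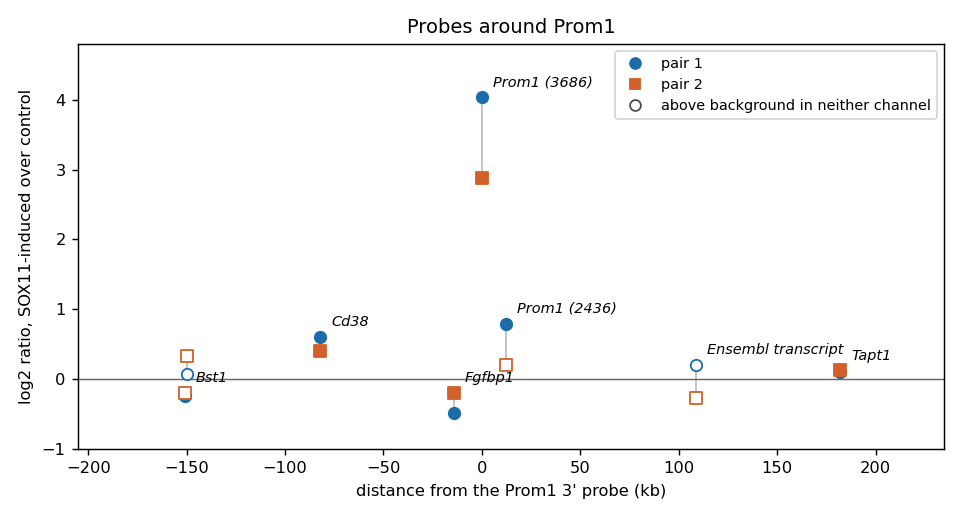
Log2 ratio (y axis) of every probe within 200 kb of the Prom1 3′ probe by distance in kb (x axis, mm9 direction); circles are pair 1, squares pair 2, and open symbols mark arrays with neither channel above background. The Prom1 3′ probe stands at 4.03 and 2.88, and the means of the 6 probes of other genes lie between -0.34 and 0.50.

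The 250 bases before the outer of the start sites that RefSeq lists for Prom1 (GRCm38.p6, chr5:44101737-44101986, minus strand) are shown because Prom1 was the gene of the set with the large ratio.
Prom1 promoter: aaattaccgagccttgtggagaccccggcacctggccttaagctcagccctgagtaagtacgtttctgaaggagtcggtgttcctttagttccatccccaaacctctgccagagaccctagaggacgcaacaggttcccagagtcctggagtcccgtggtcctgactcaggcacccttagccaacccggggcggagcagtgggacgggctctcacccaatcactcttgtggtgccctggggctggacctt
This stretch was 59.2% G and C with 9 CpG sites, against medians of 52.4% and 6 over the 32851 promoters of the table. Promoters of 8 of the 10 genes were found there, 10 in all, and were searched from 250 bases before to 50 bases after the start for ACAAAG and ACAATG, 6-letter words of the kind that SOX proteins bind, on both strands. The pair of words cannot match at the same place. Only the Lgr6 promoter held either one, ACAATG, where 28.6% of all promoters held at least 1 of them (18.7% ACAAAG and 12.6% ACAATG). That a word is absent from these windows says nothing about SOX11 binding elsewhere.

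Plet1, which codes for a surface protein of the follicle's junctional zone, was the only other gene of the set with positive ratios on all its probes in both pairs. At base 1208 (chr9:50313107-50313166) the log2 ratios were 0.91 in pair 1 and 0.31 in pair 2 (0.61 ± 0.422, SD, n = 2 pairs), and at base 316 they were 0.90 and 0.46 (0.68 ± 0.307). The brighter probe, at base 1208, read 1927 and 3605 scanner units in the controls and 7514 and 10758 in the SOX11-induced pups. Both probes were well above background in all 4 channels. Neither passed the adjusted p, and their names lie outside the rule by which the set was chosen. Both passed in 2 other ways of processing, with the normexp offset at 50 (means of 0.62 and 0.61, limma adjusted p = 0.0352 and 0.0139) and with median centring in place of loess (1.32 and 1.21, limma adjusted p = 0.000415 and 0.000533), which moved the median of all probes above background from 0.04 to 0.53.

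Cd34 was barely measured. This gene, which codes for a sialomucin of the surface of bulge cells and of blood vessel cells, gave 0.17 and -0.34 at base 963 (chr1:196785280-196785339), where no channel was above background. At base 2370 (chr1:196787392-196787451) the ratios were -0.13 and 0.21, with both channels above background on the array of pair 2 alone. The signs of the ratios differed between pairs on both probes, and no level can be given for pair 1. Bulge-resident CD34 protein is known mainly from later follicles, which is background and not a result of these arrays.

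Among the R-spondin receptors Lgr5 had the lowest mean log2 ratio of the set, on 1 of its 2 probes. At base 4618 the scanner brightness was 55.7 and 128 in the controls and 70.6 and 86.4 in the SOX11-induced pups. The log2 ratios were -0.69 and -1.93 (-1.31 ± 0.875, SD, n = 2 pairs). Only the control of pair 2 was above background, so the ratio of pair 2 rests on a signal in 1 channel and that of pair 1 on none. In pair 2 Lgr5 was at least 3.47-fold lower in the SOX11-induced pup (log2 levels of 7.20 and 5.27), and in pair 1 no bound can be given. The adjusted p, 0.0234 in the limma fit, was 0.204 with the channels unpaired and 0.277 with processed signals. At base 3776 no channel was above background, and the ratios of 0.48 and 0.09 had the opposite sign. For bulk epidermis, fewer cells of a kind and less RNA per cell cannot be told apart, here or in any ratio below.

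Lgr6 and Lgr4 gave mean ratios near 0 after loess. Lgr6 at base 2711 (chr1:136883782-136883841) gave -0.07 and -0.13, and at base 3557 (chr1:136880538-136880597) it gave 0.33 and -0.40, a mean of -0.04 ± 0.515 (SD, n = 2 pairs). All 4 channels were above background on both Lgr6 probes. Thus the probe with the larger ratios changed sign between pairs, and the other stayed within 0.14 of 0 on the log2 scale. With median centring the mean at base 3557 was 0.54 and passed (limma adjusted p = 0.0441), and that at base 2711 was 0.13 and did not. Lgr4 (chr2:109853567-109853626) gave -0.13 and -0.06 with the SOX11 channel of pair 2 alone above background.

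Lrig1 and Nfatc1 were read well on both of their probes. Lrig1, whose product lowers ERBB receptors, gave 0.02 and -0.30 at base 4618 (chr6:94554811-94554870; -0.14 ± 0.232, SD, n = 2 pairs). At base 4906 (chr6:94554523-94554582) it gave 0.11 and -0.24 (-0.07 ± 0.247). Hence both Lrig1 probes changed sign between pairs, and with median centring their means were 0.50 (limma adjusted p = 0.035) and 0.40 (0.0792). Nfatc1, a calcium- and calcineurin-dependent factor of bulge cells, was lower in both pairs on both probes. It gave -0.46 and -0.77 at base 3827 (-0.62 ± 0.216) and -0.33 and -0.87 at base 3180 (-0.60 ± 0.382). In scanner units the probe at base 3827 read 279 and 348 in the controls and 403 and 454 in the SOX11-induced pups, where the red channel is brighter for the typical probe as well (medians of 43.0 and 45.4 in green against 73.9 and 78.2 in red). Neither Nfatc1 probe passed the adjusted p. With the offset at 50 the probe at base 3827 did (-0.54, limma adjusted p = 0.0189), and with median centring their means were -0.06 and -0.12.

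Tbx1 went in opposite directions in the littermate pairs. Tbx1, a T-box factor, was 1.69-fold brighter in the SOX11-induced pup of pair 1 (log2 ratio 0.75) and 3.89-fold dimmer in that of pair 2 (-1.96), a mean of -0.60 ± 1.92 (SD, n = 2 pairs) that was 0.02 with median centring. Its scanner brightness was 271 and 1787 in the controls and 890 and 1072 in the SOX11-induced pups, all above background. A difference between pairs of at least this size, 2.72 log2 units, was seen for 0.266% of probes above background. After scaling between arrays the control level rose by 2.63 log2 units from pair 1 to pair 2, while the SOX11 level differed by -0.08. The difference between pairs thus lay in the control channel, and 1 pup stood behind each value.

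Foxc1, a forkhead factor, followed the same order with smaller steps. It gave 0.36 and -0.35 (0.01 ± 0.503, SD, n = 2 pairs; chr13:31902423-31902482), with scanner brightness of 306 and 641 in the controls and 775 and 1137 in the SOX11-induced pups. Its control level was 0.94 log2 units higher in pair 2 and its SOX11 level 0.23 higher. With median centring its mean was 0.61 and passed (limma adjusted p = 0.0248). Over the set, pair 1 had the higher ratio on 9 of the 9 probes above background, against 49.8% of all probes above background. The count was also 9 with the offset at 50, median spot brightness, median centring and processed signals. The remaining ways of processing keep these ratios or repeat those of median spot brightness, so they are not separate counts. Ratios were positive in pair 1 and negative in pair 2 on 5 of those 9 probes, against 13.5% of all. The sign was shared by the pairs on 4 of the 9, against 74.1%. These counts compare the pairs with each other and describe 2 arrays.

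Keratins of the growing hair differed between the same pairs. All 13 hair shaft keratins had positive ratios in pair 1 (median 2.21), and 12 were negative in pair 2 (median -0.39). The 9 inner root sheath genes had medians of 1.61 and -0.27. Summed over the list after scaling, hair shaft keratin brightness was 38651 and 338179 in the controls of pairs 1 and 2 and 184262 and 271207 in the SOX11-induced pups. The control of pair 1 was thus the lowest of the 4 sums and that of pair 2 the highest, an order that Foxc1 and Tbx1 shared. For Tbx1 the control of pair 2 stood furthest apart (11.26 on the log2 scale, against 8.63 to 9.39 in the other channels). The 8 keratinocyte markers had medians of 0.05 and 0.06, with members on either side of 0. Krt5 (-0.25 and -0.62) and Krt14 (-0.13 and -0.50), keratins of the basal layer, had negative ratios in both pairs, and Krt1 (0.36 and 0.89) and Krt10 (0.23 and 0.94), keratins of the layers above it, positive ones. Dsg1a, which the paper uses as a differentiation marker, was negative in both pairs (-0.57 and -0.15), as was Trp63 (-0.18 and -0.28). Dsp (0.51 and 0.27) and Lor (0.50 and 0.49) were positive in both. None of the 8 passed the adjusted p. The part of hair content in the ratios of Tbx1, Foxc1 and the other markers was not tested.

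**Figure D4:**
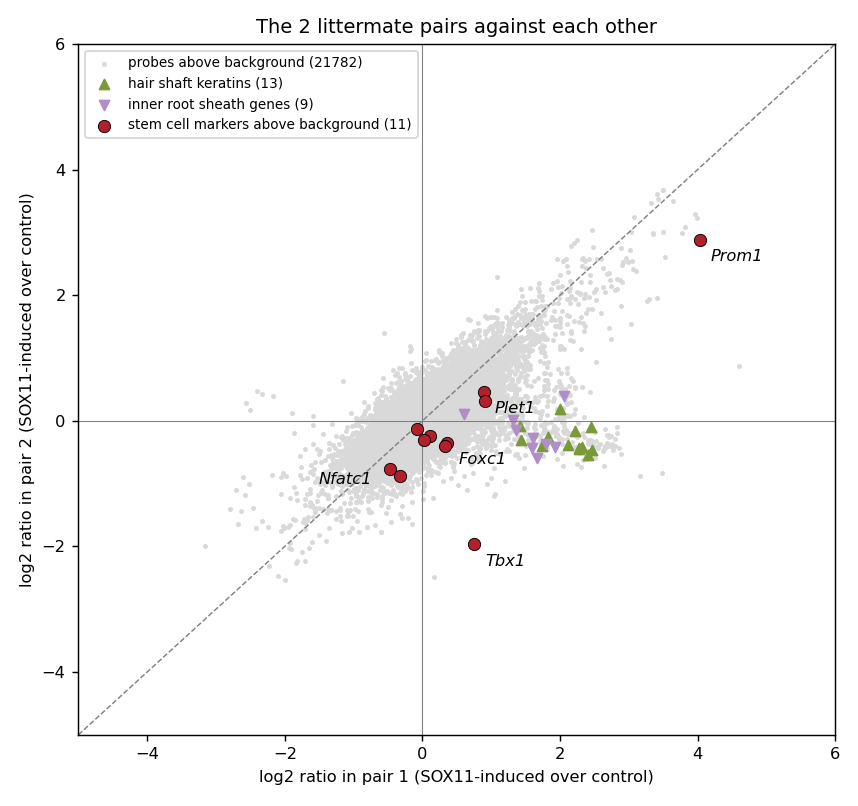
Log2 ratio in pair 1 (x axis) against pair 2 (y axis) for probes above background (grey), hair shaft keratins (up triangles), inner root sheath genes (down triangles) and the probes of the stem cell markers with Plet1 (red); the dashed line marks equal ratios. All red points lie below the dashed line, as do the hair shaft keratins, and Tbx1 lies at 0.75 and -1.96.

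Measured against the hair shaft keratins of the same array, Tbx1 gave nearly equal values. The Tbx1 ratio less the median of the 13 keratins was -1.46 in pair 1 and -1.58 in pair 2, a reference chosen after the ratios had been seen. For Lgr5 at base 4618 the same difference was -2.90 and -1.54, and for Prom1 at base 3686 it was 1.82 and 3.27. On this scale the pairs came closer for 1 of the 9 probes above background, Tbx1, with an SD of 0.0839 in place of 1.92. The other 8 moved apart, Foxc1 to -1.85 and 0.04.

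Other genes of follicle and epidermal stem cells moved unevenly. Of 19 such genes, each read by its brightest probe, 16 were above background, 1 passed the adjusted p higher and 2 lower in the limma fit over all probes, and the median mean was -0.04 against 0.00056 over all 34820 names. Read in the same way, 3.42% of all names passed higher and 1.72% lower, shares against which the counts of this and the next 3 lists stand. These lists, too, were chosen with earlier results of these data known, so their counts and adjusted p values give no independent support. Ly6a, which codes for the surface antigen SCA1 of the upper follicle and interfollicular epidermis, rose by 2.50 ± 0.108 on the log2 scale (SD, n = 2 pairs; limma adjusted p = 9e-05). Ratios were 2.43 in pair 1 and 2.58 in pair 2. Krt15, a keratin of basal and bulge cells, fell with ratios of -1.08 and -0.99 (-1.03 ± 0.0662; limma adjusted p = 0.00621). Col17a1, the transmembrane collagen of hemidesmosomes that holds stem cells to the basement membrane, fell with ratios of -1.33 and -0.88 (-1.10 ± 0.312; limma adjusted p = 0.00728). With median centring in place of loess Krt15 was at -0.24 and Col17a1 at -0.45 and both calls were lost (limma adjusted p = 0.264 and 0.0759).

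In this list, too, some factors of the growing follicle differed between the pairs. Lhx2, a homeobox factor of follicle progenitors, gave 0.93 and -1.01, and Sox9 gave 0.30 and -0.60. Gli1, a target of Hedgehog signals, gave -0.29 and -1.54 on its brightest probe. Its other probe, above background in no channel, had the reverse order, at -1.11 and -0.38. None of these passed the adjusted p. Pair 1 had the higher ratio for 14 of the 19 genes. Less the median of the hair shaft keratins of each array, Lhx2 was at -1.28 and -0.62, with an SD of 0.462 in place of 1.37. Sox9 and Gli1 moved apart on that scale, to SDs of 1.20 and 0.953 from 0.634 and 0.883. Dimmer probes of the list also passed, Itga6, a hemidesmosome integrin, on a probe at 3.38 ± 0.545 (adjusted p = 8e-05 in the limma fit) and Fgf18, a growth factor of the bulge, on a probe at -0.81 ± 0.0301 (limma adjusted p = 0.0186). The brightest Itga6 probe was at -0.01 ± 0.102, so these probes of the gene disagreed. The brightest Fgf18 probe gave -1.25 in pair 1 and -0.24 in pair 2, with pair 2 the higher.

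The ligands of the LGR receptors were not detected. Rspo1, Rspo2, Rspo3 and Rspo4, the R-spondins, were above background in no channel, nor was Sp5, a Wnt target. Of the 13 genes of R-spondin and Wnt signalling 8 were above background, and 0 passed the adjusted p higher and 1 lower, with a median of -0.10. The gene that passed was Axin2, a feedback inhibitor switched on by Wnt signals, at -0.66 ± 0.188 (SD, n = 2 pairs; limma adjusted p = 0.0487). Neither SOX11 channel of its brightest probe was well above background, so by that probe Axin2 was at least 1.38-fold lower. Mean log2 levels were 5.93 in the controls and 5.27 in the SOX11-induced pups. Axin2 did not pass with median spot brightness (limma adjusted p = 0.0737). Its other probe, above background in no channel, gave -0.29 in pair 1 and 0.04 in pair 2. Znrf3 and Rnf43, the ubiquitin ligases that R-spondins hold back, were at -0.33 ± 0.277 and 0.54 ± 0.155 and did not pass.

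Most relatives of the markers did not pass the test. Of 12 relatives 9 were above background, 1 passed higher and 0 lower, with a median of -0.03. Podxl2, which codes for endoglycan, a sialomucin of the CD34 family, rose by 1.60 ± 0.182 on the log2 scale (SD, n = 2 pairs; limma adjusted p = 0.000726), with ratios of 1.73 and 1.48. Cd34 itself was too dim for a comparison, and Podxl, the third gene of that family, was above background in no channel. Prom2, the paralog of Prom1, was at -0.46 ± 0.44 and did not pass, with ratios of -0.77 and -0.15. Tbx2 and Foxc2 were above background in no channel, and Tbx3 was so in a single channel of each array, whereas Nfatc2, Nfatc3, Nfatc4 and Nfat5 had means between -0.32 and 0.35. Lrig2 was at 0.21 ± 0.024 and Lrig3 at -0.61 ± 0.248, and neither passed.

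Receptors that LRIG1 lowers and genes of calcineurin, which acts on NFATC1, had mostly negative ratios after loess. Of 4 ERBB or MET receptors and 5 calcineurin genes, 8 of the 9 were above background, 0 passed higher and 1 lower, and the median was -0.31. With median centring it was 0.23, and the medians of the lists of stem cell genes, R-spondin and Wnt genes and relatives, all negative after loess, were then 0.21, 0.08 and 0.14. Erbb2, a receptor of the ERBB family that LRIG1 holds down, fell with ratios of -0.72 and -0.74 (-0.73 ± 0.0137, SD, n = 2 pairs; limma adjusted p = 0.0291), a call that median centring ended (-0.11, limma adjusted p = 0.614). Egfr was at -0.33 ± 0.04 and Erbb3 at -0.33 ± 0.0506. Ppp3cb, a catalytic subunit of calcineurin, the phosphatase that activates NFATC1, was at -0.49 ± 0.0182, and Rcan1, a calcineurin inhibitor and NFAT target, at -0.05 ± 0.0447. None of these passed.

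**Figure D5:**
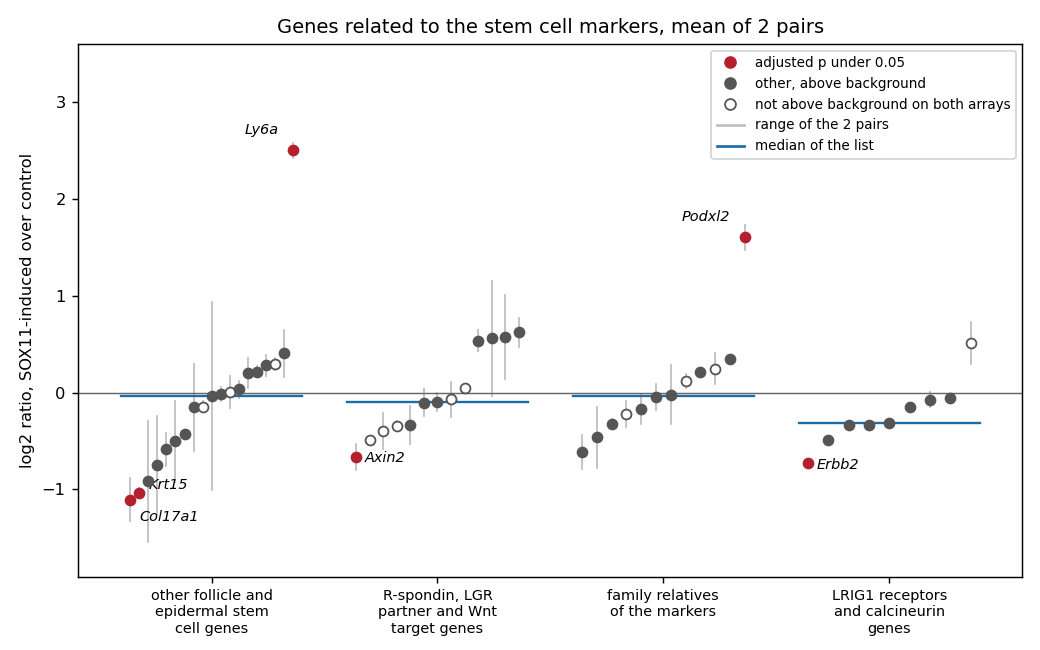
Mean log2 ratio over 2 pairs (y axis) for the brightest probe of each gene in 4 lists related to the stem cell markers, ordered by value within a list; grey lines span the pairs, red marks an adjusted p under 0.05 in the limma fit over all probes, open circles were not above background on both arrays, and blue bars are list medians. Ly6a at 2.50 and Podxl2 at 1.60 lie above all other points, and the longest grey line belongs to Lhx2.

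Between 37.5% and 42.6% of the 59305 gene spots on an array were detected in each channel. The 2 Sox11 probes start at bases 7437 and 7983 of the transcript, outside the reading frame that the transgene carries, and were above background in no channel, so they do not check the induction. Detection of markers of dermal and vascular cells differed between lists. Above background on both arrays were 5 of 7 fibroblast genes, 4 of 8 endothelial genes and 1 of 9 dermal papilla genes. Of 9 dermal papilla genes 8 were above background in no channel, as were Pdgfra and Lum of 7 fibroblast genes and Cdh5, Tek, Tie1 and Emcn of 8 endothelial genes. Summed scaled brightness of the fibroblast list was 2611 and 2159 in the controls and 1420 and 1956 in the SOX11-induced pups. The median mean was 0.23 in the fibroblast list and 0.12 in the endothelial list, where 0 genes passed higher and 2 and 1 lower. Those that passed were Thy1 (-1.30 ± 0.105, limma adjusted p = 0.002), Dcn (-0.79 ± 0.243, limma adjusted p = 0.0276, but -0.22 and 0.345 with median centring) and the endothelial gene Egfl7 (-1.01 ± 0.297, limma adjusted p = 0.0111). Other members lay on the other side of 0 without passing, as the fibrillar collagen genes Col1a1 (-0.03 and 0.77), Col1a2 (-0.17 and 1.14) and Col3a1 (-0.17 and 0.92) did in pair 2 and Esam, an adhesion molecule of endothelium, in both pairs (0.63 and 0.40). Neither control channel of Esam was above background. In the immune, sebaceous gland and melanocyte lists, with 6 genes each, 0 passed. Their part in the ratios of Cd34 and the other markers was not tested.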

How the data were processed

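Two-colour arrays of 2 littermate pairs were analysed. Per the file headers, Agilent Feature Extraction 10.7.3.1 made the scanner files, whose deposited intensity values are spot brightness and local background of each channel, not normalized, beside processed signals. Their deposited log10 ratio (Cy5 over Cy3 of those processed signals) was not used. Log2 ratios made by the authors form the series table, which could be rebuilt to within 0.00046 from median spot brightness by the steps below. A colour swap is mentioned in the study's methods, but both arrays carry the same dye labels.

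In R 4.3.3 with limma 3.58.1, mean brightness and median background were corrected by normexp (offset 16) and each array was centred by loess. Control spots and outlier-flagged spots (194 and 186) were then dropped and spots of a probe averaged. An intercept was fitted to the ratios of each of 55676 probes, with moderated variances (prior SD 0.223, 8.14 degrees of freedom) and Benjamini-Hochberg adjustment. Each ratio is within a littermate pair. An exact sign-flip test over 2 pairs cannot go below p = 0.5, so calls rest on the moderation, and the number of arrays limits precision. Above background means marked so by the scanner software in at least 0.5 of a probe's spots. Channel levels were taken after loess and Aquantile scaling, and folds given as "at least" set a dim group on each array to the higher of its own level and the lowest among probes above background, open to dye bias.

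Members and lists were chosen with earlier results of these data known. The naming rule took all members, each gene of the related lists past an adjusted p of 0.05 while above background, relatives by family, and the 3 genes nearest to a member past a mean of 1.5. Related genes and those nearest to a member were read by the brightest probe. The fit was also run on data simulated from its own variance model. That simulation held no dye bias or pair effect, so it does not check for them.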

Additional observations from a re-analysis of the deposited data

How the results depend on the processing

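The 3′ probe of Prom1 met the call rule in 7 of 8 other ways of processing, with means from 2.84 (offset 50) to 4.39 (processed signals). Several of the 8 leave its ratios unchanged, and the authors' table repeats median spot brightness, so they are not separate checks. Offset 50 called 177 probes in all. The scanner software's processed signals called 0 probes, 0 of them members, with 936 past 1.5 at an unadjusted p under 0.05, and 0 genes passed in each of the 4 related lists. Median centring in place of loess moved the median of probes above background from 0.04 to 0.53 and called 803 probes (794 higher, 9 lower, against 203 and 48). Under it 7 genes passed among follicle stem cell genes, 10 among R-spondin and Wnt genes, 5 among relatives and 2 among receptors and calcineurin genes, against 3, 1, 1 and 1. In the same order offset 50 gave 5, 3, 2 and 2. For R-spondin and Wnt genes 2 passed among probes above background alone, and 0 with median brightness or the authors' table.

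The replicate number marks a littermate pair on 1 array, so the pairing is that of the labels. With no replicate block, the 4 channels taken as separate samples, 236 probes were called in place of 251, and 0 genes passed among R-spondin and Wnt genes and 0 among receptors and calcineurin genes.

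Leaving out a replicate left 1 array and so a fold with no test. Between 265 and 547 probes above background were past 1.5, and between 1 and 2 member probes, Prom1 and, in pair 2 alone, Tbx1. Of 208 single values and medians under these alternatives 31 moved by more than the SD between pairs. Of 130 tested probe values of the set with Plet1, 3 lost an adjusted p under 0.05 (Prom1 and Lgr5 with processed signals, Lgr5 with no replicate block) and 8 gained one, from Plet1, Foxc1, Lgr6 and Lrig1 with median centring and Plet1 and Nfatc1 with offset 50. By sign, 2 member probes were positive and 4 negative in each way of processing with both pairs. Under median centring 4 member probes, Plet1 not counted, passed the adjusted p higher and 1 lower. The counts of signs and of pair order, and the reference to hair shaft keratins, were added after the data were seen. Low signal limits Cd34, Lgr4, Lgr5 and the coding Prom1 probe most.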
